A study of Mus musculus with 6 samples.

Results

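A group of 10 immediate-early genes was followed in the lateral ventricle choroid plexus of aged and young mice. They comprise 3 early growth response genes (Egr1, Egr2, Egr3), the 3 members of the Nr4a family of orphan nuclear receptors (Nr4a1, Nr4a2, Nr4a3), and Ier2, Ier3, Btg2 and Dusp1. The members were taken as the probe sets that the platform annotation gives to one of these symbols alone, and all 10 genes were found among the 18193 genes of the table, with 20 of the 45037 probe sets that are not controls. The 6 Affymetrix arrays came from 6 male CD1 mice, an outbred stock, with 3 mice aged 18 months and 3 aged 2 months. The labels name no treatment and no allele. An array stands for 1 mouse, whose left and right plexus were pooled as whole tissue, and the RNA was amplified before labelling. The hour of dissection and the handling of the mice, to which these genes respond, are not given in the sources used here.

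Immediate-early genes are transcribed within minutes of a stimulus, without new protein synthesis, because the factors that switch them on are already bound or waiting in the cell. Serum response factor binds CArG boxes, and CREB binds cyclic AMP response elements (CRE), and both are activated by phosphorylation or by co-factors downstream of growth factors, calcium and cyclic AMP. EGR proteins are zinc finger factors and NR4A proteins are nuclear receptors without a known natural ligand in their pocket, so that their activity follows their level closely. The transcripts are short-lived, and products such as DUSP1, a phosphatase that switches off MAP kinases, shut the response down. The choroid plexus is the vascular epithelial tissue that secretes cerebrospinal fluid.

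Promoter windows of 300 bases, 250 before to 50 after each annotated start, were taken from RefSeq (GRCm38.p6) for the 7 members with an entry: Egr2, Nr4a1, Nr4a2, Nr4a3, Ier3, Btg2 and Dusp1. Egr1, Egr3 and Ier2 are named only. The stretches that follow are shown because they hold matches to the motifs searched. All are written 5′ to 3′ on the strand of the gene, and capitals mark the matches to the motifs searched on both strands: the CRE TGACGTCA, its core TGACG, the EGR site GCGNGGGCG and the CArG box. A core inside a CRE was counted under both.
Egr2, chr10:67537794-67537823, plus strand: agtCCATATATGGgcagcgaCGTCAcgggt
Nr4a1, chr15:101266766-101266815, plus strand: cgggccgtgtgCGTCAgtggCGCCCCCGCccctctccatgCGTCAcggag
Nr4a3, chr4:48045065-48045164, plus strand: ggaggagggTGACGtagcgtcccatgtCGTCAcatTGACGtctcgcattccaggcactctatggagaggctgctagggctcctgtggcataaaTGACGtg
Btg2, chr1:134079271-134079330, minus strand: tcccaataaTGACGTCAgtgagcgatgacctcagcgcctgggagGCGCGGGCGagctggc
Dusp1, chr17:26508603-26508672, minus strand: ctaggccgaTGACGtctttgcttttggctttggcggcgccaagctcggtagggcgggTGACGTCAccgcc

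The Egr2 stretch holds a CArG box, CCATATATGG, 72 to 63 bases before the start, with a CRE core on the opposite strand downstream of it. A CArG box stood in 1 of the 7 genes, and in 1.63% of all 32851 promoter windows. The full CRE stood in Btg2 and Dusp1, 2 of the 7 genes, and in 1.79% of all windows. The core TGACG stood in 6 of the 7 genes, all but Ier3, and in 20.8% of all windows. Nr4a1, Nr4a2 and Nr4a3 each held 4 cores. An EGR site stood in 3 of the 7 genes, Nr4a1, Nr4a2 and Btg2, and in 5.55% of all windows. The NR4A element AAAGGTCA, called NBRE, stood in 0 of the 7 and in 1.51% of all windows. The 7 genes had 11 windows, 5 of them of Egr2, so these shares of genes are not the same measure as the shares of all windows. Counted by window, the CArG box stood in 4 of the 11, the full CRE in 2, the core in 8, the EGR site in 3 and the NBRE in 0. The windows with a CArG box were all of Egr2, and some of them overlap and hold the same box and the same cores. Counts by window therefore repeat that stretch of DNA. A match describes these letters in this window and is not a measurement of binding.

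**Figure D1:**
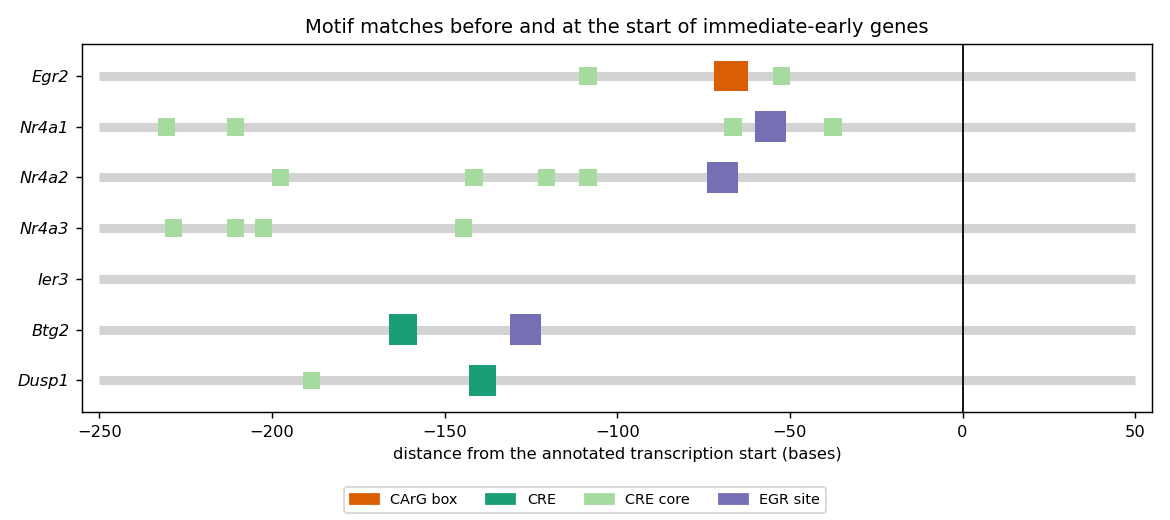
Matches to 4 motifs in the promoter windows of 7 immediate-early genes, plotted by distance in bases from the annotated transcription start (vertical line), with 1 start shown for Egr2. Cores of the CRE recur in all 3 Nr4a genes, the full CRE appears in Btg2 and Dusp1, and the CArG box in Egr2.

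The arrays read as choroid plexus. Of 15 epithelial markers, 13 had a probe set named for them alone, and all 13 lay above the bacterial control probe sets on every array, with a mean log2 intensity of 12.37 to 12.43 at 18 months and 12.37 to 12.45 at 2 months. Neuron markers were detected too, at levels that differed between mice of the same age. The 14 neuron markers tested averaged 6.62, 7.40 and 8.37 in the aged mice (18 months), against 7.20, 6.66 and 8.24 in the young mice (2 months). Their summed linear intensity ran from 2826 to 9577 at 18 months and from 2589 to 8676 at 2 months, 13 of the 14 lay above the bacterial controls on every array, and 0 were at 0. The 3 replicate numbers are those of the labels, and replicate 3 of each age held the highest neuron signal. On the first principal component, with 28.5% of the variance, replicate 3 at 18 months and replicate 2 at 2 months lay at opposite ends.

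No immediate-early gene among the 10 passed the test for a difference between the ages. Of these, 9 were bright enough to test and 1, Egr2, was not. Of the 9 tested, 7 were higher and 2 were lower on average at 18 months, with a median log2 difference of 0.40 beside 0.00318 over all 12681 genes tested. By limma with Benjamini-Hochberg adjustment, 0 of the 9 passed an adjusted p of 0.05 in either direction, where 0% of all genes did so upward and 0% downward. At an unadjusted p under 0.05 the members again numbered 0, against 4.02% of all genes higher and 3.03% lower. Without replicate 3 at 2 months 2 members, Egr1 and Nr4a1, were higher at that p, where 3.58% of all genes were. That mouse lay inside the 18-month range for both genes, and leaving out any other single mouse gave 0 members. In 0 of the 9 did the mice of one age all lie beyond those of the other, where 7.06% of all genes had separate ranges with 18 months higher and 6.25% with 18 months lower. The lowest adjusted p of a member was 0.746, and the lowest over all genes was 0.0540. The median rested on single mice: it was 0.12 without replicate 3 at 18 months, 0.23 without replicate 2 at 2 months, and 0.02 without both.

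**Figure D2:**
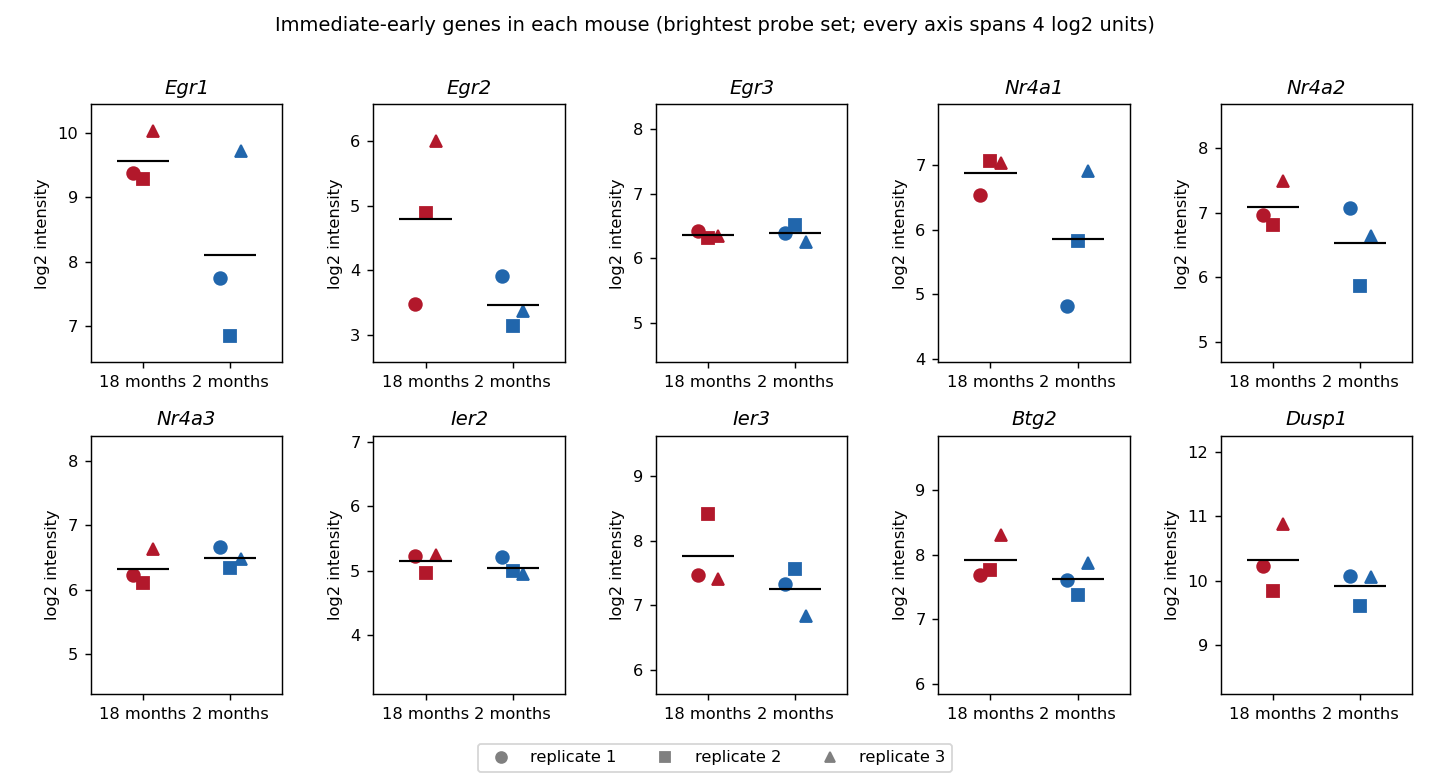
Log2 intensity of the brightest probe set of each immediate-early gene in each mouse, with 18 months to the left of 2 months, a symbol for each replicate and a line at the group mean. The 18-month mice sit close together for Egr1 and Nr4a1 while the 2-month mice spread over 2.86 and 2.10 log2 units, and the highest 2-month mouse falls inside the 18-month range.

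Egr1, the zinc finger factor also known as Zif268 and a standard marker of recent cell stimulation, had the largest difference of the 9 members tested. Its log2 intensities were 9.38, 9.28 and 10.03 at 18 months, and 7.75, 6.86 and 9.72 at 2 months. Replicates 1 and 2 at 2 months were low, and replicate 3 lay among the aged mice, so that the groups overlapped. The log2 difference was 1.45 (SE 0.70, 95% confidence interval -0.22 to 3.13, limma adjusted p = 0.746), or 2.74-fold. The spread within the 2-month group (SD 1.46, n = 3) was as large as the difference, while the 18-month group was narrower (SD 0.41, n = 3). Without replicate 3 at 2 months the difference was 2.26 (limma adjusted p = 0.452), and without replicate 2 at 2 months it was 0.83.

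Egr2, a zinc finger factor best known for Schwann cell myelination and hindbrain patterning, lay near background. Its brighter probe set read 3.48, 4.88 and 6.01 at 18 months, and 3.91, 3.14 and 3.37 at 2 months. Of the 3 arrays per age, 2 at 18 months and 0 at 2 months exceeded the highest bacterial control of the same array, which ranged from 4.25 to 4.71. The 18-month mean lay 1.24-fold above the mean of those highest controls on the 2-month arrays. This is not a tested lower limit, because the ages overlapped and the 18-month mean includes the background value of 3.48. The means as measured were 4.79 and 3.47. Their log2 difference in the fit over all probe sets was 1.32 (SE 0.62, confidence interval -0.18 to 2.82, limma adjusted p = 0.895). The dimmer probe set read 3.68, 3.83 and 5.32 at 18 months, and 3.07, 2.94 and 2.79 at 2 months. It exceeded the bacterial controls on 1 array at 18 months and 0 at 2 months, so that its values are mostly background and no fold is given. It was the single one of the 20 member probe sets whose ages did not overlap with 18 months higher, and 0 had separate ranges with 18 months lower. Over all probe sets those shares were 5.36% higher and 5.63% lower. In the fit over all probe sets, where 0.00222% passed an adjusted p of 0.05, it was not called (limma adjusted p = 0.806). In both probe sets replicate 3 at 18 months was the highest array.

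Egr3, induced with Egr1 in stimulated neurons, muscle spindles and lymphocytes, was read by a pair of probe sets that behaved differently. The brighter one was flat, at 6.42, 6.32 and 6.35 at 18 months and 6.40, 6.52 and 6.26 at 2 months (log2 difference -0.03, SE 0.16, 95% interval -0.41 to 0.35, limma adjusted p = 0.979). The dimmer one spanned 2.39 log2 units over the 6 mice, beside 3.17 for Egr1, with 4.47, 4.73 and 6.08 at 18 months and 5.40, 4.58 and 6.86 at 2 months. It exceeded the bacterial controls on 2 arrays of each age. Its highest values were replicate 3 of each age, and its log2 difference was -0.52 (SE 0.67, 95% interval -2.14 to 1.10).

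Nr4a1, also called Nur77, a nuclear receptor first found as a gene induced by nerve growth factor, followed Egr1 in the order of the differences. It read 6.53, 7.07 and 7.04 at 18 months, and 4.81, 5.82 and 6.91 at 2 months. The 2-month mice were spread out again, with replicate 3 inside the 18-month range. The log2 difference was 1.03 (SE 0.51, 95% interval -0.19 to 2.26, limma adjusted p = 0.746), or 2.05-fold. It was 1.57 without replicate 3 at 2 months (limma adjusted p = 0.606), and 0.52 without replicate 1 at 2 months.

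Nr4a2, or Nurr1, required for midbrain dopamine neurons, had 6 probe sets that disagreed. The brightest read 6.96, 6.81 and 7.50 at 18 months, and 7.08, 5.86 and 6.65 at 2 months, with a log2 difference of 0.56 (SE 0.35, 95% interval -0.29 to 1.40, limma adjusted p = 0.800). Replicate 2 at 2 months was the low array, and the difference was 0.23 without it. The other 5 gave log2 differences from -0.22 to 0.0056, and one of them spanned only 0.079 log2 units over all 6 mice. Nr4a3, or Nor1, had 3 probe sets, of which the dimmest exceeded the bacterial controls on 0 of the 6 arrays. Its brightest read 6.23, 6.10 and 6.63 at 18 months, and 6.67, 6.34 and 6.48 at 2 months (log2 difference -0.17, SE 0.21, 95% interval -0.67 to 0.32, limma adjusted p = 0.897), so that the ages overlapped. The middle one reached 6.13 and 6.35 in replicate 3 at 18 and at 2 months, and lay between 3.97 and 5.03 in the other 4 mice. It exceeded the controls on 1 array at 18 months and 2 at 2 months.

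Dusp1, whose phosphatase inactivates p38, JNK and ERK kinases and which glucocorticoids also induce, read 10.22, 9.84 and 10.88 at 18 months, and 10.07, 9.61 and 10.06 at 2 months. Replicate 3 at 18 months was the highest array, and the remaining values of the ages interleaved. Its log2 difference was 0.40 (SE 0.30, 95% interval -0.32 to 1.13, limma adjusted p = 0.833), and 0.12 without that array. Btg2, an antiproliferative gene and p53 target that promotes mRNA deadenylation, read 7.68, 7.76 and 8.31 at 18 months, and 7.61, 7.38 and 7.87 at 2 months. Its difference was 0.30 (SE 0.24, 95% interval -0.28 to 0.87, limma adjusted p = 0.835), and its other probe set gave 0.34 (SE 0.20). Without replicate 3 at 18 months and replicate 2 at 2 months, Dusp1 differed by -0.035 and Btg2 by -0.018.

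Ier3, or IEX-1, a stress-induced regulator of cell survival, read 7.47, 8.41 and 7.41 at 18 months, and 7.33, 7.57 and 6.84 at 2 months. Here replicate 2 at 18 months stood high, and the ages overlapped. The log2 difference was 0.52 (SE 0.34, 95% interval -0.28 to 1.32, limma adjusted p = 0.805), and 0.20 without that mouse. Ier2, a small nuclear protein gene of the serum response, read 5.23, 4.97 and 5.23 at 18 months, and 5.21, 4.99 and 4.94 at 2 months. These values lay close to the filter level of 4.92, and differed by 0.10 (SE 0.17, 95% interval -0.32 to 0.52, limma adjusted p = 0.927).

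**Figure D3:**
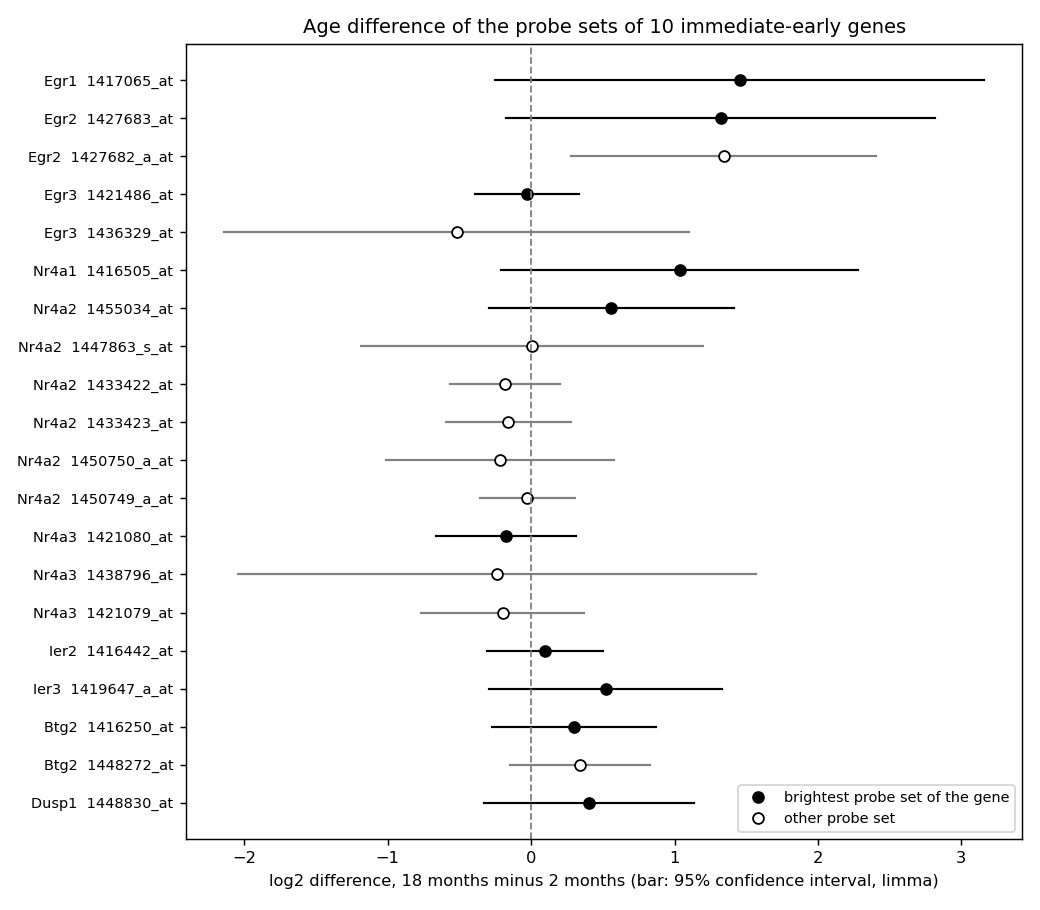
Log2 difference, 18 months minus 2 months, of all 20 probe sets of the 10 genes, with 95% confidence intervals from the limma fit over 45037 probe sets. In 19 of the 20 the interval includes 0, the exception being the dimmer Egr2 probe set, which exceeded the bacterial controls on 1 of the 6 arrays, and the probe sets of Egr3 and of Nr4a2 differ in the width of their intervals.

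Some member probe sets were highest in the mice with the highest neuron markers. Of the 17 member probe sets above the filter level, 5 (29.4%) had their 2 highest arrays in replicate 3 of each age, the mice with the highest neuron markers, against 6.77% of all 27022 probe sets above that level. They were those of Egr1, the dimmer Egr3, the middle Nr4a3, the brighter Btg2 and one Nr4a2 probe set, and the other probe sets of Egr3, Nr4a3, Btg2 and Nr4a2 did not have their highest arrays there. Arc, an immediate-early gene of excitatory neurons, named after its values were seen, was also highest in those mice, with 5.33, 5.77 and 7.43 at 18 months, and 6.62, 6.10 and 7.55 at 2 months. In whole tissue more cells of a type and more RNA per cell cannot be told apart. Oligodendrocyte and stroma markers, given below, also had their 2 highest arrays in replicate 3 of each age. Macrophage markers and multiciliated and ependymal markers, given below, were likewise highest in replicate 3 within each age. For macrophages replicates 1 and 3 at 2 months were nearly level. High values in replicate 3 therefore cannot tell the neuron list from these other lists. In the 2 mice with the lowest neuron markers, at 6.62 and 6.66, Egr1 read 9.38 at 18 months (replicate 1) and 6.86 at 2 months (replicate 2). In the 2 with the highest, at 8.37 and 8.24, it read 10.03 at 18 months and 9.72 at 2 months (replicate 3 of each age). With the neuron level as a covariate the difference was 1.36 for Egr1 (SE 0.46, limma adjusted p = 0.590) and 0.98 for Nr4a1 (SE 0.45, limma adjusted p = 0.668). Macrophage markers also differed in level, the 11 tested averaging 7.67, 7.13 and 7.80 at 18 months, against 6.97, 6.75 and 6.97 at 2 months. Their summed intensity ran from 2860 to 4291 at 18 months and from 2267 to 3497 at 2 months, with 0 at 0 and 9 above the bacterial controls on every array, and their part in the values of the members was not tested. Markers of multiciliated and ependymal cells were lower in all aged mice, the 9 tested averaging 6.90, 6.99 and 7.49 at 18 months, against 7.90, 7.68 and 8.40 at 2 months. Their summed intensity ran from 3351 to 3638 at 18 months and from 3878 to 4821 at 2 months, with 0 at 0 and 7 above the controls on every array. The 10 oligodendrocyte markers tested averaged 7.34, 8.06 and 8.74 at 18 months, against 7.64, 6.42 and 8.30 at 2 months. They were lowest in replicate 2 at 2 months, as was Egr1, and highest in replicate 3 of each age. Their summed intensity ran from 2878 to 7651 at 18 months and from 2065 to 7757 at 2 months, with 0 at 0 and 8 above the controls on every array. The 7 stroma markers tested averaged 6.84, 6.85 and 7.66 at 18 months, against 7.07, 7.13 and 7.29 at 2 months. Their summed intensity ran from 1476 to 2115 at 18 months and from 1416 to 1652 at 2 months, with 0 at 0 and 6 above the controls on every array. The part of these lists in the members' values was likewise not tested. The 3′ control probe set of Gapdh exceeded the 5′ one, a gauge of RNA integrity, by a log2 value of 1.41 ± 0.16 at 18 months and 1.57 ± 0.12 at 2 months (SD, n = 3 each, two-sided exact permutation p = 0.3, where the design allows none below 0.1). For beta-actin the same value was -0.19 ± 0.08 at 18 months and -0.21 ± 0.23 at 2 months (SD, n = 3 each, two-sided exact permutation p = 1).

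**Figure D4:**
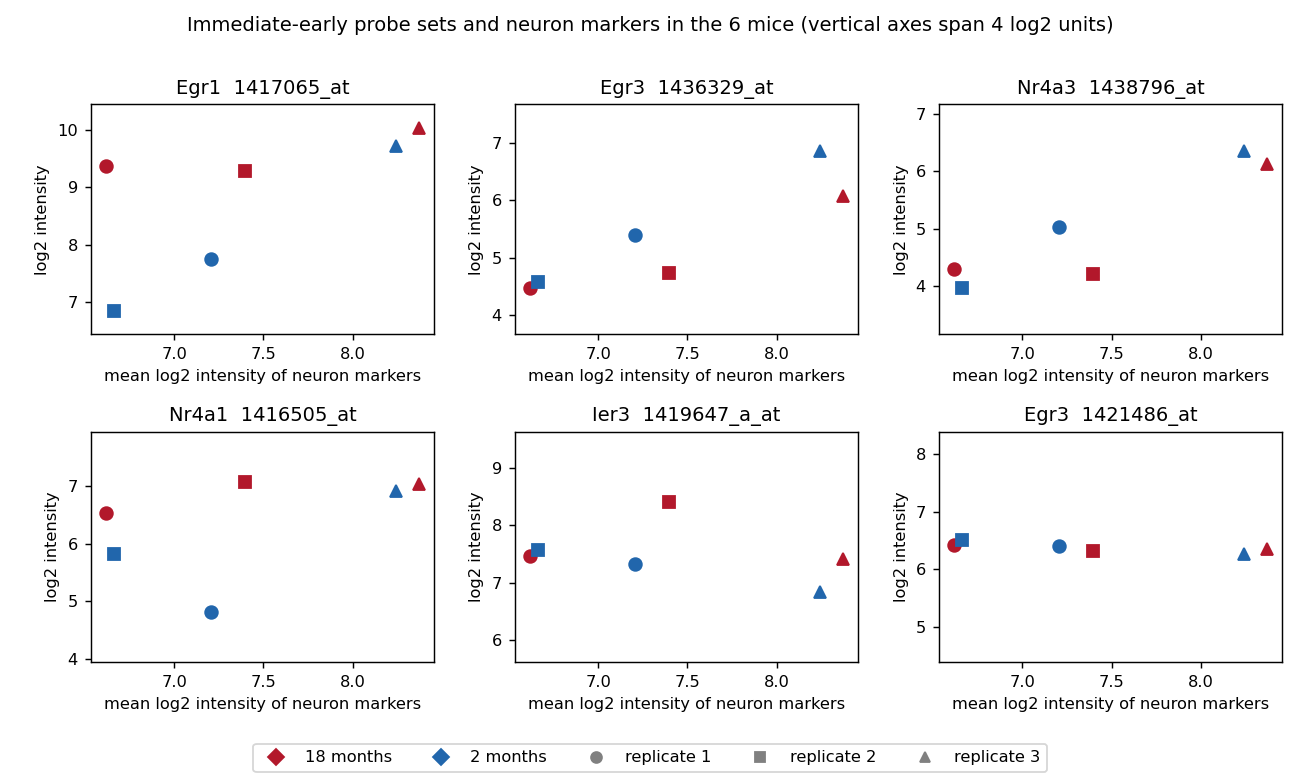
Log2 intensity of 6 member probe sets (vertical) against the mean log2 intensity of 14 neuron markers (horizontal) in the 6 mice, coloured by age and shaped by replicate. Egr1, the dimmer Egr3 and the middle Nr4a3 probe set are highest in replicate 3 of each age, whereas Ier3 and the brighter Egr3 probe set are not.

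Of the genes that work beside the members, on 6 pathway lists, 0 passed the limma adjusted p of 0.05 in either direction. At an unadjusted p under 0.05 there were 3 higher AP-1 genes, 1 lower gene among the other transcription factors, 1 lower among the other effectors, 1 higher and 1 lower among the upstream factors and kinases, and 0 on the other lists. Over the 96 genes these were 4.17% higher and 3.12% lower, close to the 4.02% and 3.03% of all genes. Of 8 AP-1 subunit genes tested, 7 were higher at 18 months with a median of 0.21, and the 3 named by that p were Fosl2, Fos and Jun. Of 16 other immediate-early transcription factor genes, 9 were higher (median 0.10). Hes1, a Notch target, had the smallest p (log2 difference -0.49, SE 0.19, limma adjusted p = 0.682), and Klf4, a serum-responsive factor, differed by 0.36 (SE 0.19). Of 27 other effectors 18 were higher (median 0.12), among them the matricellular gene Ccn1 at 0.98 (SE 0.41, limma adjusted p = 0.709) and the mRNA-decay gene Zfp36l2 at 0.53 (SE 0.23), while the kinase gene Pim1 gave -0.63 (SE 0.22).

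Among feedback inhibitors, the MAP kinase phosphatases and Sprouty proteins that act beside DUSP1, 7 of 14 were higher (median 0.06). Dusp6, which is specific for ERK, differed by 0.64 (SE 0.34, limma adjusted p = 0.773) and Spry1 by 0.35 (SE 0.17). Of 10 partner genes of EGR and NR4A proteins, 5 were higher (median -0.02). Nab2, an EGR co-repressor that EGR factors themselves induce, read 7.54, 7.98 and 7.85 at 18 months, and 7.41, 7.42 and 7.63 at 2 months, with overlapping ages and a difference of 0.30 (SE 0.19, limma adjusted p = 0.791). Of 21 upstream factors and kinases, 11 were higher (median 0.02). Rps6ka3, the kinase RSK2 that phosphorylates CREB and serum response factor, gave -0.61 (SE 0.18, limma adjusted p = 0.613), and Prkacb, a catalytic subunit of protein kinase A, gave 0.56 (SE 0.21, limma adjusted p = 0.682). Both had separate ages. Of the 21 on that list, 2 were separate with 18 months higher and 1 with 18 months lower, beside 7.06% and 6.25% of all genes. Among the genes named from the other lists, Fosl2, Fos, Jun, Klf4, Zfp36l2 and Spry1 were separate with 18 months higher. Hes1 and Pim1 were separate with 18 months lower, and Ccn1 and Dusp6 overlapped. All were named for their small p, which favours separate ages. Over whole lists the counts higher and lower were 3 and 0 of 8 AP-1 genes, and 1 and 1 of 16 other transcription factors. They were 1 and 1 of 27 effectors, 1 and 0 of 14 feedback inhibitors, and 0 and 2 of 10 partners.

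Likeness of pattern was measured as the root mean square difference between log2 profiles over the 6 arrays, each centred on its own mean, so that smaller values mean more alike. The genes nearest to Egr1 were the axon guidance receptor gene Robo1 (0.306), Airn (0.352) and the collagen gene Col6a2 (0.369), where Egr1 itself departed from its mean by 1.14. The nearest member was Nr4a1, at 0.689, in place 107 among all genes. For Nr4a1 the nearest genes were Ppip5k2 (0.203), Krtap8-1 (0.213) and the netrin receptor gene Unc5c (0.238), against its own 0.815. The nearest member to Nr4a1 was Btg2 at 0.676, in place 838. For Dusp1 the nearest genes were Gpr37l1 (0.0623), Eva1a (0.0786) and Herpud2 (0.0786), against its own 0.396, with Btg2 the nearest member at 0.189, in place 63. For the mean profile of the 9 members tested they were Rogdi (0.0712), Acss2 (0.0748) and Ube2d-ps (0.0759). With 6 arrays, close profiles among 12681 genes are common, and these names describe the arrays only.

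**Figure D5:**
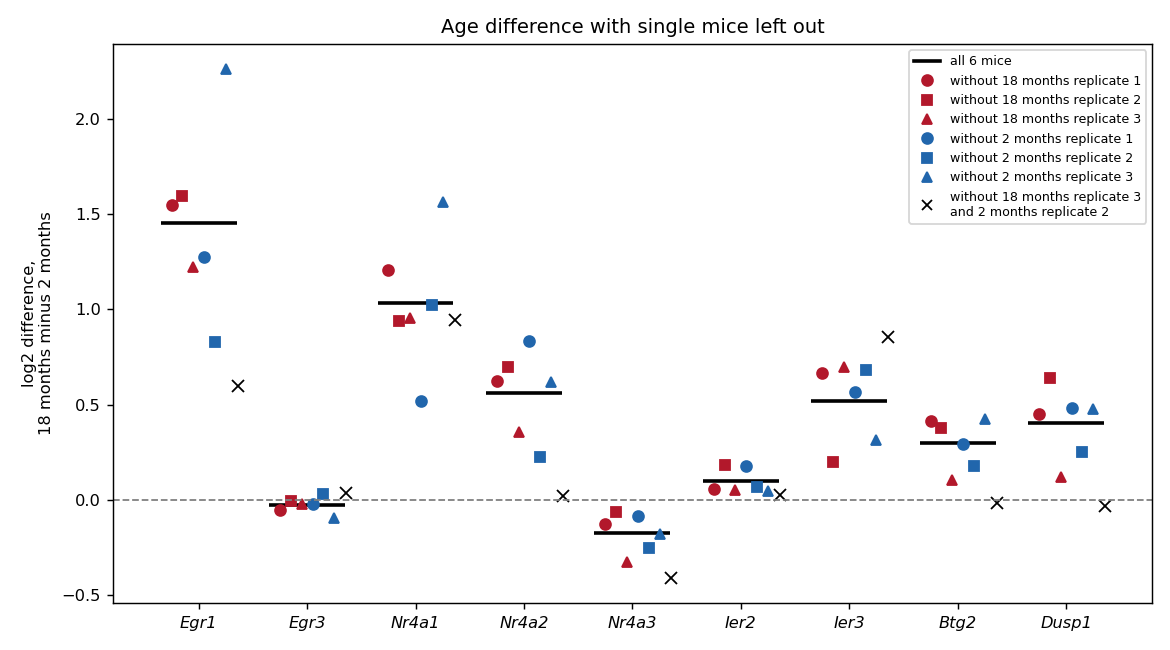
Log2 difference, 18 months minus 2 months, of the 9 immediate-early genes tested, with all 6 mice (bar), with each mouse left out in turn (symbols) and without replicate 3 at 18 months and replicate 2 at 2 months together (cross). Egr1 runs from 0.60 to 2.26 and Nr4a1 from 0.52 to 1.57, both above 0 throughout, while the crosses of Btg2 and Dusp1 lie just below 0.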

How the data were processed

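The members and gene lists were chosen with earlier results of these data known. The authors deposited normalized intensities, made with RMA per the submitters' processing notes (background correction, normalization between arrays, summary of probe sets), with no version given in the sources used here. Those intensities, from 2.47 to 26821, are linear, and their log2 was taken. Of 45037 probe sets other than controls, 34945 carried 1 symbol, 932 several and 9160 none in the platform annotation. The probe set with the highest mean stood for each of 18193 genes, and the 12681 at or above the 40th percentile (log2 4.92) were tested. The bacterial controls were 27 probe sets for Bacillus transcripts. Ages were compared with limma 3.58.1 in R 4.3.3 (lmFit, eBayes, two-sided, 18 months minus 2 months, no covariates), adjusted over all genes tested. The fit was also tested on simulated data with 200 changed genes. There 18.0% of 2-fold and 85.0% of 4-fold changes were called, and 6.09% of the calls were false. A gene that was not called may therefore still differ by 2-fold. Differences are log2 differences with standard errors (SE) from the fit to the measured arrays. Intervals of genes come from the gene fit, and those of further probe sets from a fit over all probe sets. The number of arrays limits the precision. The text names all members, the genes of smallest p of each pathway list, and the 3 genes most alike to Egr1, Nr4a1, Dusp1 and the members' mean. Alternatives were the filter, the mean of probe sets, normalization, mice left out, a replicate block, a neuron covariate and array weights.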

Additional observations from a re-analysis of the deposited data

How the results depend on the processing

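By limma, 0 of the immediate-early genes passed an adjusted p of 0.05 with all 6 mice or under any of the 15 alternatives. Over all genes 0 passed with all mice, and leaving out single mice gave 0 to 0. The number was 4 with the 60th percentile filter, 5 when the probe sets of a gene were averaged, 5 with arrays centred on their medians, 1 with the neuron covariate and 4 with array weights. The labels do not say whether the replicate numbers shared by the ages pair the mice. Deviations of same-numbered arrays correlated at -0.015, 0.019 and 0.168. The last, of replicate 3, was the highest across the ages, while replicate 1 at 18 months correlated best with replicate 2 at 2 months. With 3 mice per age these values cannot decide whether the mice were paired. With the replicate block 0 genes passed, the median of the members tested stayed at 0.40, and 2 of them (Egr1 and Nr4a1) had an unadjusted p under 0.05, against 0 without it. Such a p with 18 months higher was then found for 3.98% of all genes. With the neuron covariate 1 member, Egr1, had such a p, as did 4.44% of all genes upward. Leaving out single mice, the median ran from 0.12 to 0.48. The direction turned for Egr3 without replicate 2 at 2 months (0.033, with a range of -0.096 to 0.033 when single mice were left out) and without that array and replicate 3 at 18 months (0.037), for Nr4a2 when its probe sets were averaged (-0.0038), and, with the same pair of arrays left out, for Btg2 (-0.018) and Dusp1 (-0.035). The cause was not tested. Egr2 was tested only with no filter (1.32, limma adjusted p = 0.813). Egr1, Nr4a1, Ier3, Ier2 and Nr4a3 kept their direction wherever they were tested.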

Other observations

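Single mice stood apart in a few genes related to the members, all named after their values were seen. The phosphatase gene Dusp7 lay between 6.997 and 7.18 at 18 months, against 6.98, 9.71 and 7.06 at 2 months, and its log2 difference was -0.82. Socs3, an inhibitor of cytokine signalling, read 5.68, 6.38 and 7.58 at 18 months, and 3.17, 5.66 and 6.10 at 2 months, with replicate 1 at 2 months the lowest, as for Nr4a1. Homer1, whose short form is an immediate-early transcript of neurons, read 10.81, 8.48 and 9.35 at 18 months, and 9.07, 9.27 and 9.71 at 2 months, without the order of the neuron markers. Ier5, an immediate-early relative of Ier2, read 9.85, 8.84 and 8.76 at 18 months, and 10.51, 9.34 and 9.84 at 2 months, with a log2 difference of -0.75 (SE 0.41, limma adjusted p = 0.777).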
